A study of Mus musculus with 54 samples.

Results

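F2 testes from 2 parental crosses of mice were compared: the cross in which both parents came from the dose 2 group (the biparental cross) and the cross in which only the mother did (the maternal cross). The comparison was chosen by its sample labels and took 6 of the 54 libraries of the series, 3 per cross, out of 27 testis libraries and 18 from F2 testis. Since the mother came from the dose 2 group in both crosses, what differs between them by label is the father, from the dose 2 group in the biparental cross and from the control group in the maternal cross. The paternal cross (dose 2 father, control mother) and the control cross, 3 libraries each, are given beside them. Dose 2 was drinking water with IBU (ibuprofen) at 113 ng/L, its metabolite 2hIBU at 225 ng/L, DCF (diclofenac) at 112 ng/L and the synthetic estrogen EE2 at 45 ng/L. The control water held 0.001% ethanol, the exposure of the first generation began at 8.5 days post coitum, and there were 6 to 7 dams per exposure group. For the F2 males themselves, taken at 35 days post partum, the labels give no treatment. The strain is not given in the sources used here, nor is it said whether libraries A, B and C of a cross came from separate litters, so p-values measure only the spread between these libraries.

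In the testis, germ cells develop inside tubules among Sertoli cells, and Leydig cells between the tubules make androgens. Luteinizing hormone acts on Leydig cells through its receptor and raises cholesterol transport into mitochondria, where the side chain is removed and the steroid is passed on to further enzymes. Non-steroidal anti-inflammatory drugs such as ibuprofen and diclofenac block prostaglandin synthesis, and ethinyl-estradiol activates estrogen receptors.

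The deposited counts of the 6 libraries summed to 39.3, 37.6 and 36.8 M in the biparental cross and 38.3, 38.7 and 48.2 M (mega) in the maternal cross, within the 31.6 to 48.2 M of all F2 testis libraries. Levels are given as CPM, the counts of a gene per M counts of its scaled library, and they serve to compare one gene between libraries, not one gene with another. Testis markers were present throughout: the 27 elongating spermatid markers summed to 25780 to 29920 CPM in the biparental cross and 25170 to 26860 CPM in the maternal cross, and none of the spermatid, Sertoli or Leydig markers was at 0 over the 6 libraries. Epididymis markers summed to 159.9 to 172 CPM and 156 to 177 CPM, with 2 of 18, Spag11b and Teddm1a, at 0 in all 6. In whole testis, fewer cells of a type and less RNA per cell cannot be told apart.

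No gene passed the test between the biparental and the maternal cross. Of 19379 genes tested with edgeR's quasi-likelihood test on the 18 F2 testis libraries, 0 had an adjusted p under 0.05 (0% called), and the lowest adjusted p was 0.176. At an unadjusted p under 0.05 there were 2460 genes, against the 969 that the threshold alone would give. Without maternal C there were 1368, and in a fit on all 27 testis libraries 751 of 19578 genes tested. Of the 2460, 1155 were higher in the biparental cross (5.96% called) and 1305 were lower (6.73% called). DESeq2 on the same counts called 147 genes, 66 higher and 81 lower. The 3 biparental libraries lay all above the 3 maternal ones in 1638 genes (8.45% called) and all below them in 1926 genes (9.94% called). The median log2 fold change, biparental over maternal, was -0.0038 over all genes tested, with 9529 positive and 9850 negative. Values below are therefore given as levels and differences of genes that edgeR did not call, with the call where DESeq2 made one. Counts within gene lists are to be set beside the shares of all genes given here. Where a list lies near them, its counts are not a result about that list.

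Leydig cell genes tended to be at higher levels in the biparental cross. Of 20 Leydig cell markers tested, 16 had a positive log2 fold change, 8 were higher and 0 lower at an unadjusted p under 0.05, and the biparental libraries lay all above the maternal ones in 7 and all below in 0. Over all genes, 9529 of 19379 were positive, 5.96% were higher and 6.73% lower at that threshold, and 8.45% lay all above and 9.94% all below. The median log2 fold change of the Leydig markers was 0.16, against -0.0038 over all genes. It was 0.0589 without maternal A, 0.29 without maternal B, 0.256 without maternal C and 0.311 without biparental A. Summed, the list stood at 1679 to 1899 CPM in the biparental libraries and 1326 to 1621 CPM in the maternal ones, which did not overlap. In the paternal and control crosses it stood at 1432 to 1606 CPM and 1282 to 1656 CPM. A sum is carried mostly by the genes with the highest levels. The mean log2 level of the list did overlap, with biparental A at 5.301 below maternal C at 5.345.

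Among receptors on Leydig cells, Lhcgr encodes the luteinizing hormone receptor. It was at 30.3, 37.4 and 36.6 CPM in biparental libraries A, B and C, against 23.5, 20.8 and 19.7 CPM in the maternal ones. Every biparental library was above every maternal one (log2 fold change 0.71, SE 0.21, adjusted p = 0.224, edgeR). The control cross spanned both levels, at 32.4, 19.8 and 19.99 CPM, with library A far above the other two. Prlr encodes the prolactin receptor and was at 50.2, 66.5 and 64.2 CPM in the biparental cross and 39.99, 42.1 and 36.4 CPM in the maternal cross. Biparental A was the lowest of its group and still above maternal B, the highest of its own (log2 fold change 0.61, SE 0.12, adjusted p = 0.197, edgeR). Prlr was one of the genes that DESeq2 called, at an adjusted p of 0.00156.

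Star carries cholesterol to the inner mitochondrial membrane, the step at which steroid synthesis is mainly controlled. It was at 154, 116 and 129.5 CPM in the biparental cross, against 68.6, 107 and 81.7 CPM in the maternal cross. The groups did not overlap, though maternal B came near biparental B (log2 fold change 0.63, SE 0.20, adjusted p = 0.227, edgeR). Cyp11a1, which cleaves the cholesterol side chain, was at 228, 257 and 269 CPM in biparental libraries and 206, 209 and 185 CPM in maternal ones. Its groups lay close together without overlap (log2 fold change 0.33, SE 0.14). Cyp17a1, the enzyme that turns progestogens into androgen precursors, was at 529, 603 and 623 CPM in biparental libraries and 397, 450.5 and 382 CPM in maternal ones. No biparental library was as low as any maternal one (log2 fold change 0.51, SE 0.13, adjusted p = 0.203, edgeR), and DESeq2 called the gene at an adjusted p of 0.0209. Control A, at 555 CPM, lay within the biparental range of Cyp17a1.

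Not all Leydig cell genes stood apart. Hsd3b6, a 3-beta-hydroxysteroid dehydrogenase of adult mouse Leydig cells, was at 59.3, 56.1 and 43.6 CPM in the biparental cross and 43.5, 69.6 and 63.8 CPM in the maternal cross. Insl3, a peptide hormone of Leydig cells, was at 69.5, 98.7 and 49.9 CPM in the biparental cross and 49.2, 65.1 and 111 CPM in the maternal cross. Both overlapped between the crosses, and the 95% interval of the log2 fold change ran from -0.57 to 0.26 for Hsd3b6 and -0.55 to 0.45 for Insl3. The sign for Insl3 was not stable: its log2 fold change was 0.35 without maternal C, 0.16 without biparental C and 0.0875 with counts corrected for GC content. Sult1e1, the estrogen sulfotransferase, which inactivates estrogens, was at 14.1, 11.8 and 16.2 CPM in biparental libraries and 5.40, 10.3 and 5.50 CPM in maternal ones. Maternal B was almost as high as biparental B, and the groups did not overlap (log2 fold change 0.99, SE 0.26, adjusted p = 0.203, edgeR).

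**Figure D1:**
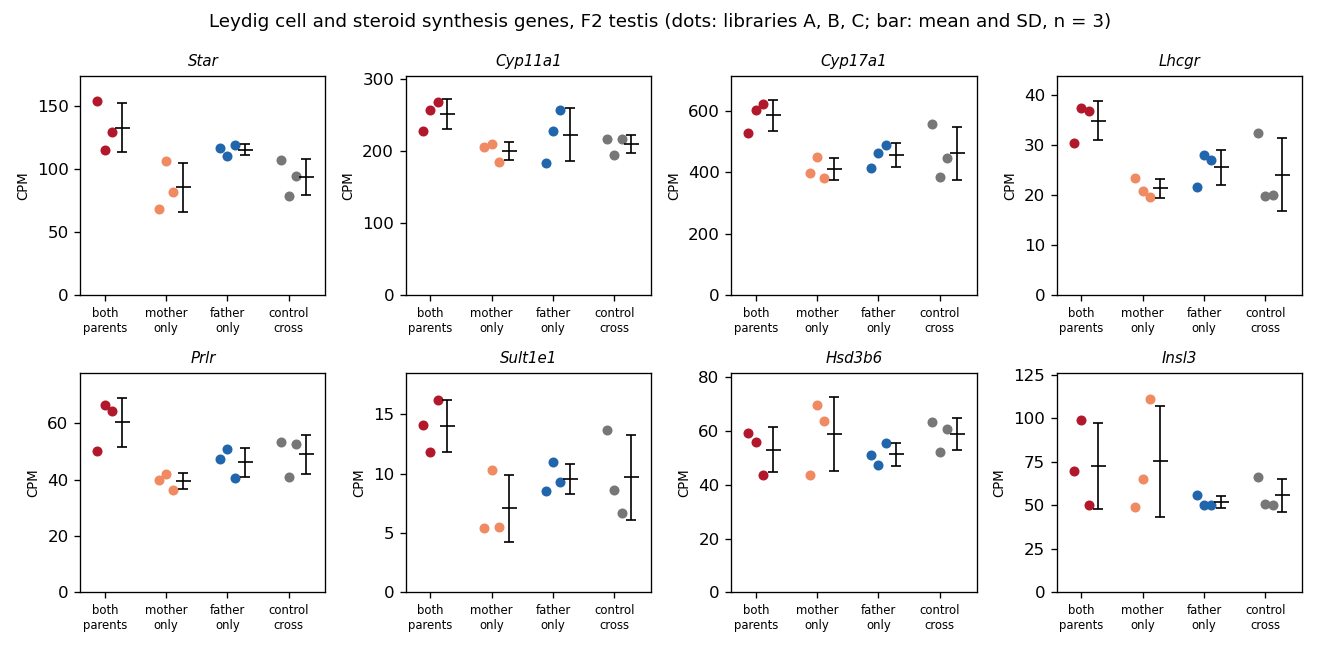
Levels in CPM (vertical axis, from 0) of 8 Leydig cell and steroid synthesis genes in the biparental, maternal, paternal and control crosses of F2 testis; dots are libraries, and the bar is the mean and SD of 3. Star, Cyp11a1, Cyp17a1, Lhcgr, Prlr and Sult1e1 have all biparental dots above all maternal dots, while Hsd3b6 and Insl3 overlap.

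The wider steroid pathway had the same lean, and its mean log2 levels also overlapped between the crosses (biparental C 3.869, maternal B 3.876). Of 22 steroid hormone synthesis genes tested, 15 had a positive log2 fold change and 8 were higher and 1 lower at an unadjusted p under 0.05, with a median of 0.17 (0.102 without biparental B); 1 of the list, Cyp11b1, was at 0 in all 6 libraries. The gene with the lower level, Hsd17b1, named after its values were seen, encodes an enzyme that forms estradiol. Its log2 fold change was -0.96 (SE 0.38), or -0.59 without maternal B, and DESeq2 gave the gene no adjusted p. In the paternal minus the control cross the log2 fold change of Hsd17b1 was 0.722. Hsd17b12, which acts on steroids and on fatty acids, was at 21.3, 19.8 and 22.4 CPM in the biparental cross and 17.4, 18.99 and 17.8 CPM in the maternal cross, without overlap. In the paternal cross minus the control cross the medians of the Leydig and steroid lists were -0.005 and 0.017. Members shared by both lists include Star, Cyp11a1 and Cyp17a1, so the lists are not separate evidence. Lists described below share members too. Sult1e1 is in the Leydig and xenobiotic lists, Prlr in the Leydig and estrogen lists, and Zbtb16 in the spermatogonia and androgen lists.

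Promoter sequences of RefSeq (GRCm38.p6, 250 bases before to 50 bases after a start site) were matched by gene ID for 26 of the 36 Leydig and steroid genes. Star and Cyp17a1 were not among the matched genes, so their promoters were not searched. The nuclear receptor half-site AGGTCA, searched on both strands, was in 16.3% of all 32851 promoters and in 5 of 33 promoters of these members, or 15.2%. Among the named genes, 3 hold it, and their promoters are shown because these genes had the levels described above; capitals mark the half-site, which in Sult1e1 lies on the opposite strand and reads TGACCT. Cyp11a1 has 2 start sites in the table, and the one with the match is printed. A match is a description of the letters and not a site of binding.
Lhcgr, chr17:88791965-88792264, minus strand: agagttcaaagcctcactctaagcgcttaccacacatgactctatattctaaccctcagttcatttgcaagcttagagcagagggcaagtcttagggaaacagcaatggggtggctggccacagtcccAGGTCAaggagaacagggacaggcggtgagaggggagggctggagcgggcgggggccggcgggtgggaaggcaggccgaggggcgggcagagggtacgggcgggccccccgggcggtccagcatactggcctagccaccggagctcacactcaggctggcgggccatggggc
Cyp11a1, chr9:58014702-58015001, plus strand: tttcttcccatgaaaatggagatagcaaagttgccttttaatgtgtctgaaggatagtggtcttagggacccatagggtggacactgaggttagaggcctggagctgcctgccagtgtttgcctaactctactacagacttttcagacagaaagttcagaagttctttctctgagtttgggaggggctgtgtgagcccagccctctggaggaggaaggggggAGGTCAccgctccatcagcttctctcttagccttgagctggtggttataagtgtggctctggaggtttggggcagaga
Sult1e1, chr5:87591562-87591861, minus strand: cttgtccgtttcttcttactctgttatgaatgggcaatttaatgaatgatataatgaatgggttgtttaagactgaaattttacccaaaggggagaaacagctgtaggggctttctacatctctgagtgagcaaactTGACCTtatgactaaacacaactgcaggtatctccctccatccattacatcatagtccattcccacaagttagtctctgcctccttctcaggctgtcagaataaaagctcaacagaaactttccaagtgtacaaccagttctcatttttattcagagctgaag

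Genes of cholesterol synthesis and uptake, which supply the steroid pathway, were also on the higher side. Of 24 tested, 18 had a positive log2 fold change, 7 were higher and 1 lower at an unadjusted p under 0.05, and the biparental libraries lay all above the maternal ones in 9 and all below in 1. The median was 0.15, and 0.07 in the paternal minus the control cross. Sc5d, a sterol desaturase late in the pathway, was at 21.1, 21.2 and 24.1 CPM in the biparental cross and 15.6, 14.2 and 15.2 CPM in the maternal cross. The 3 biparental libraries lay above all 9 libraries of the maternal, paternal and control crosses (log2 fold change 0.56, SE 0.15), and DESeq2 called Sc5d at an adjusted p of 0.0286. Msmo1, the sterol methyl oxidase, was at 29.5, 27.6 and 35.9 CPM in biparental libraries and 20.03, 25.99 and 22.9 CPM in maternal ones. Its groups were near each other but apart, as were those of the sterol dehydrogenase Nsdhl, at 22.98, 25.03 and 25.2 CPM and 21.5, 20.2 and 18.5 CPM. DESeq2 called Msmo1 at an adjusted p of 0.0495.

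Estrogen receptors and response genes bear on the EE2 in dose 2. Esr1, the estrogen receptor alpha gene, was at 7.46, 9.86 and 9.43 CPM in biparental libraries and 7.79, 7.76 and 6.77 CPM in maternal ones, and biparental A was below 2 maternal libraries. Esr2 was near the limit of detection in both, with 0.183 to 0.375 CPM in the biparental cross and 0.229 to 0.38 CPM in the maternal cross. Greb1, an estrogen-induced gene of human breast cancer cells, was at 27.01, 27.04 and 28.8 CPM in the biparental cross and 27.96, 26.6 and 26.8 CPM in the maternal cross. Both crosses were above every paternal and control library, which ranged from 19.2 to 21.9 CPM. Greb1 was chosen on earlier control-cross comparisons of these data, so that gap is not a new result. The biparental and maternal crosses differed by 0.025 on the log2 scale (95% interval -0.15 to 0.20), or by -0.0060 without biparental C.

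Of 17 estrogen receptor and response genes tested, 5 were higher and 0 lower at an unadjusted p under 0.05, with a median log2 fold change of 0.0095 (-0.0373 to 0.0711 with 1 library left out, negative without biparental C); Tff1 was at 0 in all 6 libraries. Prlr and Cxcl12 had the lowest p in that list. Cxcl12, a chemokine, was at 21.4, 22.4 and 22.3 CPM in biparental libraries and 16.7, 17.3 and 15.3 CPM in maternal ones. The biparental libraries were above all the others, paternal and control included (log2 fold change 0.42, SE 0.10, adjusted p = 0.203, edgeR), and DESeq2 called Cxcl12 at an adjusted p of 0.0159. Of 15 androgen response genes tested, 4 were higher and 0 lower at an unadjusted p under 0.05, with a median of 0.12 (0.0603 without biparental C). Klk1b21, a kallikrein, was at 25.02, 35.1 and 38.7 CPM in the biparental cross and 10.9, 25.6 and 17.5 CPM in the maternal cross, which overlap at maternal B. Of 20 prostaglandin synthesis and receptor genes tested, 2 were higher and 1 lower at an unadjusted p under 0.05 (median 0.12, 0.186 without biparental A, 0.0738 without maternal B and 0.0742 without maternal C). Ptgds, which makes prostaglandin D2, was at 49.6, 39.7 and 42.7 CPM in the biparental cross and 26.1, 34.1 and 29.6 CPM in the maternal cross, without overlap. Next by p in that list were Tbxa2r, with a log2 fold change of -0.962, and Ptgs1, with 0.713. Both of these overlapped between the crosses.

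Xenobiotic metabolism genes with a difference were on the higher side. Of 23 tested, 7 were higher and 0 lower at an unadjusted p under 0.05, and the biparental libraries were all above the maternal ones in 8 and all below in 0, while the median was 0.084 (0.248 without maternal B, 0.142 without maternal C, 0.128 without biparental A and 0.135 without biparental B). Gsta3, a glutathione transferase that in human cells also works in steroid synthesis, was at 15.9, 16.03 and 22.6 CPM in biparental libraries and 11.1, 12.4 and 9.59 CPM in maternal ones. Ugt1a6b, a glucuronosyltransferase, was at 3.27, 3.59 and 3.42 CPM in biparental libraries and 2.001, 2.56 and 1.85 CPM in maternal ones. Both genes were without overlap, and DESeq2 called Gsta3 at an adjusted p of 0.023. Ugt1a6b shares exons with other genes of its locus, so its level is uncertain.

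Among germ cell lists, elongating spermatid markers leaned to the higher side, but their sums, given above, and their mean log2 levels overlapped between the crosses. Of 27 elongating spermatid markers tested, 21 had a positive log2 fold change and 7 were higher and 0 lower at an unadjusted p under 0.05, with a median of 0.10 (0.051 without biparental A). Smcp, a protein of the sperm mitochondrial capsule, was at 1607, 1452 and 1519 CPM in the biparental cross and 1246, 1256 and 1122 CPM in the maternal cross. The maternal libraries lay below all 9 others (log2 fold change 0.34, SE 0.086, adjusted p = 0.203, edgeR), and DESeq2 called Smcp at an adjusted p of 0.0332. Cabs1, a calcium-binding protein of spermatids, was at 522, 454 and 412 CPM in the biparental cross and 373, 379 and 321 CPM in the maternal cross, again without overlap, and DESeq2 called it at an adjusted p of 0.0404. For 26 round spermatid markers the median was 0.022 (-0.0193 without biparental A), and 2 were higher and 2 lower at an unadjusted p under 0.05. Within that list, the sperm glycolytic enzyme Gapdhs was at 1591, 1421 and 1430 CPM in the biparental cross and 1386, 1357 and 1186 CPM in the maternal cross, and the lactate dehydrogenase Ldhc at 2421, 2298 and 2255 CPM and 2620, 2588 and 2566 CPM. Gapdhs was thus on the higher side and Ldhc on the lower, each without overlap, and DESeq2 called Ldhc at an adjusted p of 0.0462.

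Germ cells of earlier stages and Sertoli cells gave list medians within 0.1 of that of all genes. Spermatocyte and meiosis genes had a median of 0.0091 over 30 tested, spermatogonia markers -0.061 over 23 and Sertoli cell markers -0.019 over 30. With 1 library left out these ran from -0.021 to 0.036, from -0.0798 to 0.00391 (positive without maternal A) and from -0.0585 to 0.0669, so none kept its sign. Zbtb16, a factor of undifferentiated spermatogonia, was at 11.3, 13.6 and 12.7 CPM in the biparental cross and 11, 10.2 and 9.90 CPM in the maternal cross. Wt1, a Sertoli cell transcription factor, was at 50.4, 49.1 and 53.4 CPM in biparental libraries and 45.5, 45.9 and 44.6 CPM in maternal ones, a log2 fold change of 0.17. Both were without overlap. Other members went the other way. Cst12, with the lowest p of the Sertoli list, had a log2 fold change of -0.202 without overlap. The spermatogonial gene Sohlh2 had one of -0.238, with overlap. Negative values were found in 16 of 30 Sertoli cell markers and 14 of 23 spermatogonia markers. Among cell cycle genes the median was -0.06 (-0.0308 without maternal C and -0.0342 without biparental B), and 0 were higher and 5 lower at an unadjusted p under 0.05 out of 33. Ccnb1, which encodes cyclin B1, was at 63.7, 62.3 and 59.7 CPM in biparental libraries and 71.2, 73.3 and 77.2 CPM in maternal ones. Aurkb, a mitotic kinase, was at 12.8, 12.4 and 12.5 CPM in biparental libraries and 15.03, 15.3 and 16.8 CPM in maternal ones, so that the highest biparental library of each gene was below the lowest maternal one.

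Ribosomal protein genes and respiratory chain genes were on the lower side. Of 34 cytosolic ribosomal protein genes tested, 29 had a negative log2 fold change, 0 were higher and 12 lower at an unadjusted p under 0.05, and the biparental libraries lay all below the maternal ones in 19, with a median of -0.11. Summed, they stood at 4432 to 4669 CPM in the biparental cross and 4796 to 5055 CPM in the maternal cross. Of 36 respiratory chain genes tested, 32 had a negative log2 fold change, 0 were higher and 14 lower at an unadjusted p under 0.05, and 14 were all below, with a median of -0.13. Their sums were 3448 to 3603 CPM in the biparental cross and 3738 to 3903 CPM in the maternal cross. Neither sum overlapped between these 2 crosses. In the paternal minus the control cross the medians were 0.01 and 0.0018.

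Rplp1, a stalk protein of the large ribosomal subunit, was at 104, 99.8 and 122 CPM in the biparental cross and 132, 143 and 140.1 CPM in the maternal cross. The maternal libraries were above all 9 others (log2 fold change -0.35, SE 0.086, adjusted p = 0.203, edgeR). Rps19 and Rps14, of the small subunit, had log2 fold changes of -0.35 and -0.32, and DESeq2 called all 3 of these genes. Many ribosomal protein genes have processed pseudogenes, which can share their reads. Cox5b, a subunit of cytochrome c oxidase, was at 84.02, 80.2 and 92.6 CPM in the biparental cross and 101, 106 and 110.1 CPM in the maternal cross, where every library was above the other 9 (log2 fold change -0.31, SE 0.067, adjusted p = 0.203, edgeR). Cox6b2, the testis form of another subunit, was at 163, 153 and 201 CPM in biparental libraries and 199, 207 and 221 CPM in maternal ones. There biparental C was above maternal A, so the groups overlapped. Atp5b, of ATP synthase, was at 502, 494 and 515 CPM in biparental libraries and 546, 537 and 569.7 CPM in maternal ones, without overlap.

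Transcript composition moved with these differences. Over the genes with a transcript in the GENCODE annotation (88.8% of those tested), the top GC quartile had a median log2 fold change of -0.081 and the bottom quartile 0.047. At an unadjusted p under 0.05, 12.5% of the top quartile were lower in the biparental cross and 2.51% higher, against 2.63% lower and 8.84% higher in the bottom quartile. The median log2 level of the top minus the bottom GC quartile, relative to the mean of all libraries, was -0.045, -0.0098 and 0.051 in biparental libraries A, B and C. In maternal libraries it was 0.09, 0.061 and 0.22, above every other library of the 4 crosses. Of the ribosomal and respiratory genes, 28 of 34 and 29 of 36 were in the quartile of shortest transcripts, whose median was -0.031. With counts corrected for GC content, an alternative added after seeing the data, edgeR again called 0 genes, and the list medians were 0.16 for Leydig markers, 0.155 for steroid synthesis, 0.15 for cholesterol synthesis, -0.0955 for ribosomal proteins and -0.1 for respiratory chain genes.

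**Figure D2:**
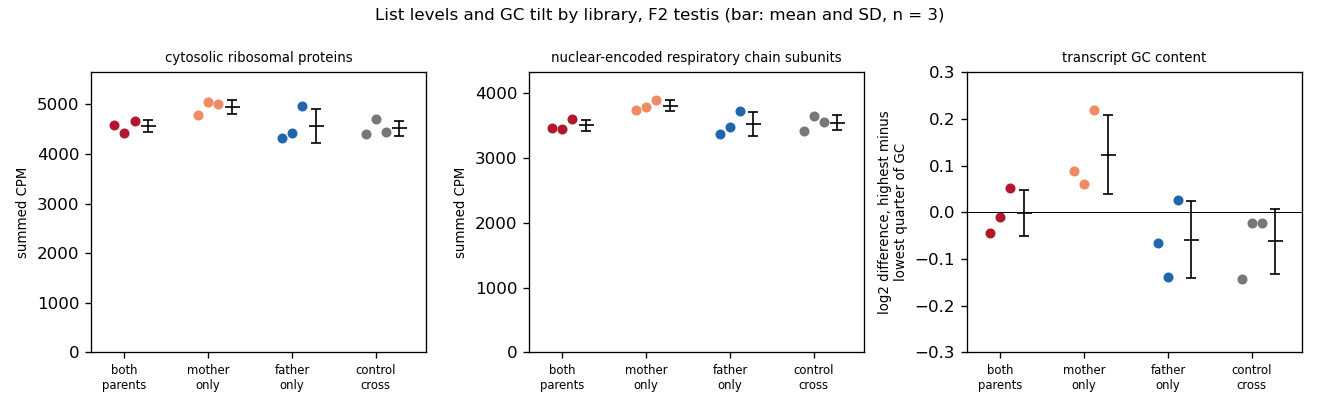
Summed CPM of 34 ribosomal protein and 36 respiratory chain genes (left and middle, axis from 0) and the median log2 level of the top minus the bottom quartile of transcript GC content (right), by library in the biparental, maternal, paternal and control crosses; the bar is the mean and SD of 3. The maternal dots lie above the biparental dots in all 3 panels.

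Markers of other cell types overlapped between the crosses in most cases. Macrophage markers, of which 14 of 20 had a positive log2 fold change, summed to 419 to 442 CPM in the biparental cross and 393 to 409.6 CPM in the maternal cross, without overlap. Their mean log2 levels did overlap, with biparental A at 2.684 and the maternal libraries at 2.768 to 2.909. Peritubular smooth muscle markers, 7 of 14 positive, summed to 545.1 to 547.4 CPM in the biparental cross and 525.6 to 540.1 CPM in the maternal cross. These sums did not overlap, but the mean log2 levels did. Endothelial markers summed to 141 to 145 CPM in the biparental cross and 128 to 143 CPM in the maternal cross, and lymphocyte markers to 18.6 to 30.1 CPM and 16.5 to 30.6 CPM. Adipocyte markers, with a median of -0.39 that was 0.0568 without maternal C and -0.224 without biparental C, summed to 98.9 to 114 CPM in the biparental cross and 89.5 to 129.6 CPM in the maternal cross. No marker of these lists was at 0 over the 6 libraries. The epididymal gene Crisp1 was at 0.183, 0 and 0.0801 CPM in biparental libraries and 9.77, 0.33 and 0.0625 CPM in maternal ones, so that 1 maternal library carried nearly all of it. The part of these cells in the results above was not tested.

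**Figure D3:**
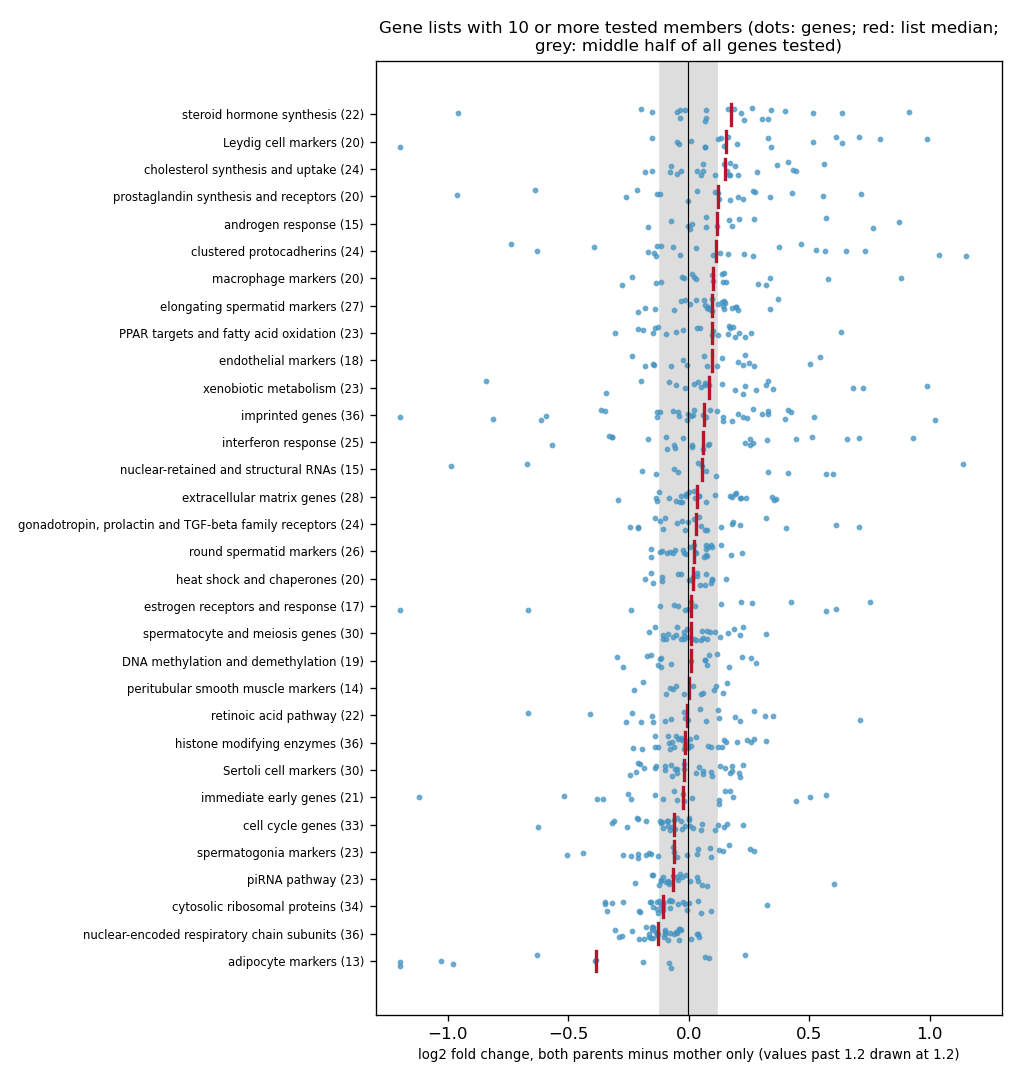
Log2 fold change, biparental over maternal (horizontal axis), of the members of each gene list with 10 or more genes tested, ordered by list median (red); the grey band is the interquartile range of all genes tested. Steroid synthesis, Leydig and cholesterol lists lie at the top, with medians of 0.17, 0.16 and 0.15; ribosomal and respiratory lists lie near the bottom, with -0.11 and -0.13, above the adipocyte list.

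Single genes with the lowest p that did not overlap between the crosses, 12 in each direction, had log2 fold changes of 0.235 to 1.35 on the higher side and -1.4 to -0.277 on the lower. Their adjusted p ran from 0.176 to 0.203 in edgeR, while DESeq2 called 22 of the 24 and gave no adjusted p for the other two, Myocd and Nat8f2. On the higher side, besides Prlr, was Gfra2, the neurturin receptor, at 62.4, 60.9 and 61.3 CPM in the biparental cross and 48.7, 47.9 and 46.96 CPM in the maternal cross. Its libraries agreed closely within each cross (log2 fold change 0.36, SE 0.07, adjusted p = 0.176, edgeR). Myocd, a cofactor of smooth muscle genes, had the widest difference, with 1.70, 1.37 and 1.31 CPM in biparental libraries and 0.842, 0.406 and 0.479 CPM in maternal ones. It is a low gene with no value in the DESeq2 adjustment (log2 fold change 1.35, SE 0.26, adjusted p = 0.176, edgeR). Nsun4, which methylates mitochondrial ribosomal RNA, was at 439, 403 and 373 CPM in the biparental cross and 330.2, 299 and 286 CPM in the maternal cross. Biparental C, the lowest of its group, was above maternal A, the highest of its own. Myo15, an unconventional myosin of hair cells, was at 20.99, 19.6 and 16.8 CPM in biparental libraries and 13.2, 11.5 and 11.3 CPM in maternal ones.

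The other 6 on the higher side, leaving out the pseudogene Vmn2r-ps54 (log2 fold change 0.64), differed by 0.24 to 0.38. They were Fam3b, a secreted protein (0.35), Elovl5, an elongase of polyunsaturated fatty acids (0.35), Cdc14a, a phosphatase (0.29), Ccdc50 (0.24), Wasf2, an actin regulator (0.35), and the testis gene Spata32 (0.38). Elovl5 was at 90.3, 95.7 and 96.1 CPM in the biparental cross and 73.9, 80.2 and 67.6 CPM in the maternal cross. No biparental library of Elovl5 was as low as any of the other 9.

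On the lower side, Rhbdd3, a rhomboid-like membrane protein, had the lowest p of all genes. It was at 106, 109 and 112 CPM in the biparental cross and 135, 137 and 156 CPM in the maternal cross. The maternal libraries lay above the range of the paternal and control libraries, 105 to 127 CPM, and the biparental ones inside it (log2 fold change -0.39, SE 0.067, adjusted p = 0.176, edgeR). Mapk9, a stress-activated kinase also called JNK2, was at 37.4, 46.5 and 43.7 CPM in the biparental cross and 62.8, 69.6 and 68.9 CPM in the maternal cross. The biparental libraries were below, and the maternal ones above, all paternal and control libraries, which ranged from 50.4 to 60.5 CPM (log2 fold change -0.66, SE 0.13, adjusted p = 0.176, edgeR). Ccdc134, a secreted protein, was at 25.8, 32.05 and 34.3 CPM in the biparental cross and 49.04, 48.7 and 55.9 CPM in the maternal cross. The groups were well apart, with biparental A the lowest of all.

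The other 9 were the ribosomal protein paralog Rpl22l1 (-0.43 on the log2 scale), the Rab GTPase activator Tbc1d10a (-0.35), the acetyltransferase-like Nat8f2 (-1.40), the histone chaperone Npm3 (-0.28), Pomgnt1, a glycosyltransferase of dystroglycan (-0.28), Rangrf, a partner of the GTPase Ran (-0.29), Cox5b, Commd4 (-0.58) and Rabac1, a Rab acceptor (-0.36). Npm3 was at 62.8, 60.5 and 61.7 CPM in the biparental cross and 70.8, 74.5 and 78.9 CPM in the maternal cross, where every library was above the other 9. Nat8f2 was low, at 0.471, 0.214 and 0.481 CPM in biparental libraries and 1.26, 0.938 and 0.896 CPM in maternal ones, and has close paralogs. As a description of genes chosen on this difference, the maternal libraries lay wholly outside the range of the 6 paternal and control libraries in 8 of the 12 higher and 10 of the 12 lower genes. The biparental libraries did so in 1 and 2.

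**Figure D4:**
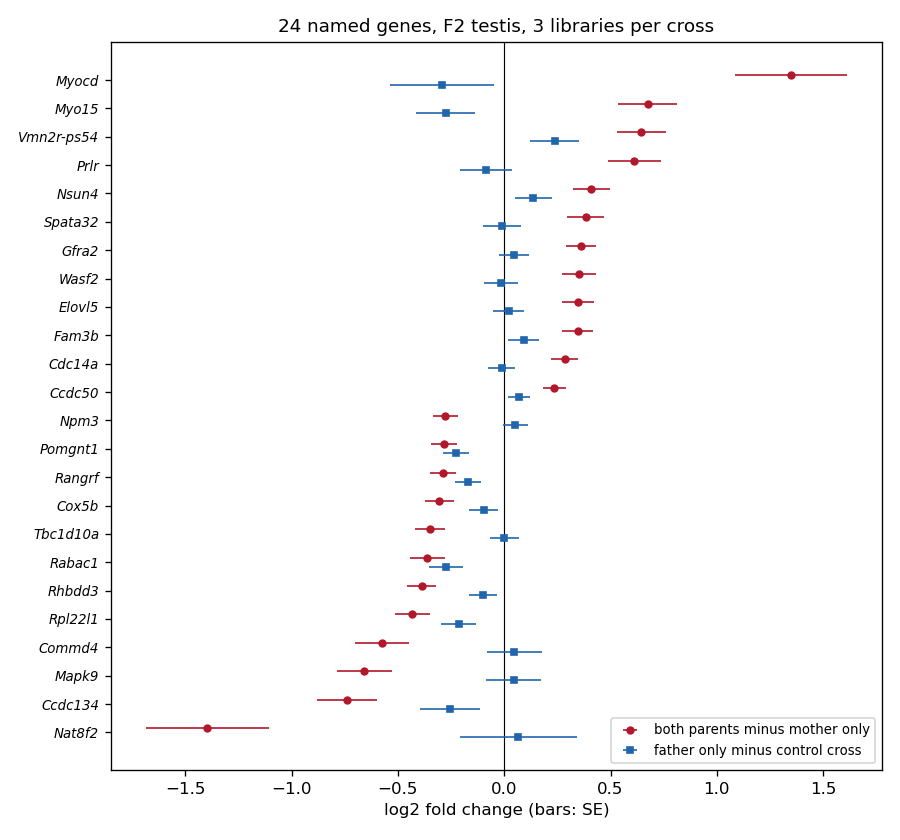
Log2 fold change with its SE of the 24 genes with the lowest p, biparental minus maternal cross (red circles) and paternal minus control cross (blue squares), 3 libraries per cross. The red points run from -1.4 to 1.35, and the blue ones from -0.292 to 0.237, with the same sign as the red in 6 of the 12 higher and 7 of the 12 lower genes.

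A dose 2 father was also compared with a control father under control mothers, though no source used here says whether the same males sired the paternal and biparental crosses. In the paternal minus the control cross edgeR called 1 gene of 19379 (0.00516% called), and 972 had an unadjusted p under 0.05 (2.47% called higher, 2.55% called lower), and DESeq2 called 8. These 6 libraries are not among those of the main comparison. Over genes the 2 differences had a Pearson r of -0.031 and a Spearman rho of 0.05, as a description of genes that are not independent. Among genes with an unadjusted p under 0.05 in both differences (edgeR), 115 had the same sign and 41 the opposite sign. Tested as an interaction, the father's difference under dose 2 mothers minus that under control mothers, 0 genes passed in edgeR (0% called) and 8 in DESeq2. At an unadjusted p under 0.05 there were 1365 (3.94% called higher, 3.11% called lower), with 884 without maternal C and 899 without control A. Averaged over both kinds of mother, 1 gene passed (0.00516% called), against 83 in DESeq2, and 1951 had an unadjusted p under 0.05 (4.44% called higher, 5.63% called lower).

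The gene that passed in both of these tests was 1700001J04Rik, a Rik gene of no stated function. It was at 3.69, 4.50 and 3.04 CPM in the biparental cross, 1.21, 0.887 and 2.65 CPM in the maternal cross, 3.95, 3.90 and 2.998 CPM in the paternal cross and 0.209, 0.326 and 0.159 CPM in the control cross. Every library with a dose 2 father was above every library with a control father and the same kind of mother. It rose by 3.96 on the log2 scale in the paternal cross over the control cross (edgeR adjusted p = 0.000394) and averaged 2.59 over both kinds of mother (adjusted p = 0.000269). Between the biparental and maternal cross the log2 fold change was 1.22 (SE 0.32, adjusted p = 0.203). The interaction was -2.73 on the log2 scale, with an adjusted p of 0.345 in edgeR, and DESeq2 called it. No source used here gives the strand setting of the counting; reads of an overlapping gene cannot be told apart from its own.

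Aaas, which encodes a nuclear pore protein, had the lowest p of the interaction (adjusted p = 0.162, edgeR). It was at 33.2, 32.1 and 36.9 CPM in the biparental cross and 38.8, 39.2 and 44.98 CPM in the maternal cross, a log2 fold change of -0.27. In the paternal cross it was at 41.1, 42.8 and 37.5 CPM, against 31.9, 31.1 and 28.9 CPM in the control cross, a log2 fold change of 0.40. The signs were opposite, and neither pair of groups overlapped. Myo15 had an interaction of 0.95, since it was at 17.96, 18.2 and 17.02 CPM in the paternal cross and 24.5, 17.97 and 21.9 CPM in the control cross, and Prlr one of 0.70. DESeq2 called the interaction of Aaas and Myo15. The imprinted gene Nnat, at 0.314, 0.268 and 0.267 CPM in the biparental cross and 0.395, 0.735 and 1.71 CPM in the maternal cross, had an interaction of -2.97. It is low in all 4 crosses, and maternal C carried most of the maternal level.

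**Figure D5:**
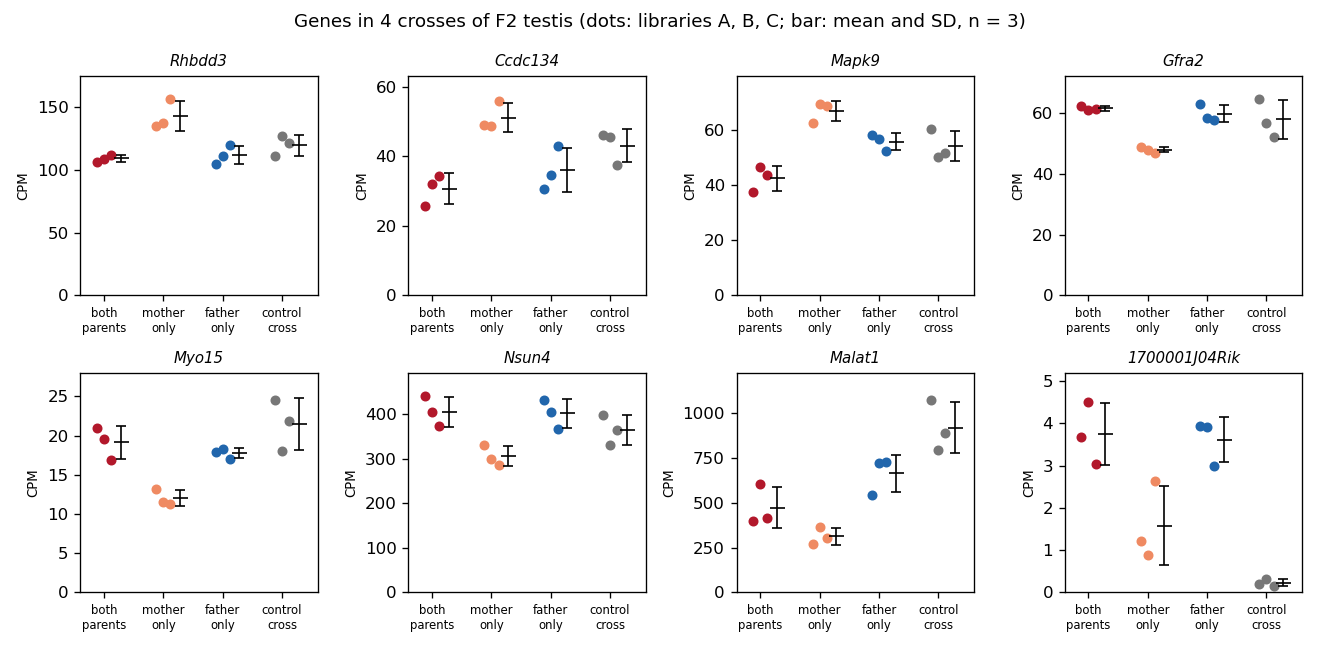
Levels in CPM (vertical axis, from 0) of 8 genes in the biparental, maternal, paternal and control crosses; dots are libraries, and the bar is the mean and SD of 3. Rhbdd3, Ccdc134 and Mapk9 are highest in the maternal cross, Gfra2, Myo15, Nsun4 and Malat1 are lowest there, and 1700001J04Rik is lowest in the control cross.

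RNAs kept in the nucleus and structural RNAs were followed in all 4 crosses. Malat1, Kcnq1ot1, Lars2 and Rn45s were chosen on earlier control-cross comparisons of these data, so their gaps to the control cross are not new results. Malat1, a nuclear RNA, was at 399, 605 and 415 CPM in the biparental cross and 269, 366 and 302 CPM in the maternal cross. The groups did not overlap (log2 fold change 0.60, SE 0.19, adjusted p = 0.241, edgeR; log2 fold change 0.38 without biparental B), and both lay below the control cross, at 1073, 793 and 890.4 CPM. Kcnq1ot1, the antisense RNA of an imprinted domain, was at 126, 148 and 121 CPM in the biparental cross and 102, 107 and 89.2 CPM in the maternal cross, also below every paternal and control library (log2 fold change 0.41, SE 0.13, adjusted p = 0.235, edgeR). Lars2, a mitochondrial leucyl-tRNA synthetase, was at 776, 922 and 771 CPM in the biparental cross and 782, 1186 and 582 CPM in the maternal cross. These overlapped widely, and both were below the 3937, 3165 and 3047 CPM of the control cross. Rn45s, the ribosomal RNA precursor, was at 129, 146 and 136 CPM in biparental libraries and 139.5, 166 and 165 CPM in maternal ones, with overlap. The list of nuclear and structural RNAs, 15 tested, also holds Lars2, although it encodes a protein. Of these 15, 5 were higher and 1 lower at an unadjusted p under 0.05, with a median of 0.053 (slightly below 0 without biparental A, and -0.0038 without maternal C).

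Several further genes were followed. Gm9758, a predicted gene, was at 2.36, 2.98 and 3.79 CPM in the biparental cross and 4.50, 6.67 and 5.86 CPM in the maternal cross. All biparental libraries were below every library of the other 3 crosses (log2 fold change -0.90, SE 0.16, adjusted p = 0.176, edgeR), and DESeq2 called it at an adjusted p of 0.000668. Cdkn2a, a cell cycle inhibitor, was at 2.59, 2.79 and 2.88 CPM in biparental libraries and 4.24, 3.63 and 4.86 CPM in maternal ones. There the maternal libraries were above all others (log2 fold change -0.62, SE 0.16). Tuba3a, a testis tubulin, was at 961, 931 and 936 CPM in biparental libraries and 1066, 1016 and 1233 CPM in maternal ones, with a near-identical paralog that can share its reads. Peg10, an imprinted gene, was at 62.03, 59.2 and 66.3 CPM in biparental libraries and 53.2, 49.3 and 49.6 CPM in maternal ones. The biparental libraries were above all 9 others (log2 fold change 0.30, SE 0.073, adjusted p = 0.203, edgeR), and DESeq2 called Peg10 at an adjusted p of 0.0218. Of 36 imprinted genes tested, 5 were higher and 1 lower at an unadjusted p under 0.05, with a median of 0.064 (0.0381 without biparental C and 0.101 without maternal B).

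Fitted on the 6 libraries alone, edgeR called 6 genes, named here after their values were seen: Bhmt, Ass1, P2rx5 and the predicted Gm17359 were higher, and Mapk9 and 5830417I10Rik lower. Of these, DESeq2 on the 18 libraries called Mapk9 and Gm17359. Bhmt, which remethylates homocysteine with betaine, was at 115, 134 and 131 CPM in the biparental cross and 70.8, 64.1 and 61.8 CPM in the maternal cross. The biparental libraries were above all 9 others, with an adjusted p of 0.00316 in that fit and 0.224 over the 18 libraries. Ass1, of arginine synthesis, was at 105, 107 and 129 CPM in the biparental cross and 71.2, 74.6 and 69.4 CPM in the maternal cross, with the biparental libraries again above all others. P2rx5, an ATP-gated channel, was at 7.96, 7.16 and 14.7 CPM in the biparental cross and 1.45, 1.09 and 1.42 CPM in the maternal cross. It varied widely in the control cross, at 0.999, 10.2 and 1.245 CPM, which lies on both sides of the difference.

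DNA methylation genes and histone modifying enzymes gave medians near 0, whose sign changed with single libraries. The DNA methylation list had a median of 0.0081 over 19 tested, where 0 were higher and 2 lower at an unadjusted p under 0.05, and histone modifying enzymes -0.014 over 36, where 5 were higher and 3 lower at an unadjusted p under 0.05. With 1 library left out they ran from -0.0823 without biparental B to 0.0236 without biparental A, and from -0.0155 without biparental C to 0.0117 without maternal A. Trim28, a corepressor that guards imprints, was at 449, 442 and 468 CPM in the biparental cross and 529.5, 484 and 519.8 CPM in the maternal cross. Mbd3, of a nucleosome remodelling complex, was at 90.6, 92.7 and 99.2 CPM in biparental libraries and 117, 101 and 129 CPM in maternal ones. Both were without overlap, on the lower side. The histone acetyltransferase Crebbp was at 79.5, 79.7 and 72.96 CPM in biparental libraries and 67.9, 62.5 and 62.1 CPM in maternal ones, on the higher side. Genes of the piRNA pathway, which silences transposons in the germ line, had a median of -0.066, where 0 were higher and 3 lower at an unadjusted p under 0.05 of 23. Fkbp6, a piRNA cochaperone, was at 31.4, 28.9 and 40.2 CPM in biparental libraries and 36.7, 40.6 and 40.1 CPM in maternal ones, where biparental C overlapped the maternal range. Pld6, a nuclease of that pathway, was at 45.3, 44.6 and 50.5 CPM in biparental libraries and 53.5, 51.4 and 51.1 CPM in maternal ones, without overlap.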

How the data were processed

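Raw read counts per gene, deposited by the authors and not normalized, were used for 26264 genes in 27 testis libraries, mapped to samples through the labels (0 columns left over). Per the submitters' processing notes the build was mm39, and the tools were featureCounts 2.0.3, SAMtools 1.13, DESeq2 1.32.0, TopHat2 2.1.1, Bowtie2 2.4.5, FastQC 1.19 and bcl2fastq 2.20. Reads were 100 nt per the labels' protocols. No annotation or strand setting is given in these sources; antisense or overlapping genes, pseudogenes and paralogs are uncertain.

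The counts of 18 F2 testis libraries (6 crosses of 3) were fitted by group means in edgeR 4.0.16 (R 4.3.3), with TMM factors, filterByExpr at a minimum count of 10, quasi-likelihood F tests and Benjamini-Hochberg adjustment at 0.05. The SE is the log2 fold change over the root of its F, and 95% intervals use the t quantile. CPM are from edgeR with TMM-scaled library sizes. DESeq2 1.42.0 was the alternative. The scripts were tested on simulated data. No exact permutation test was run, since the smallest p that 3 libraries against 3 allow is 0.1. Replicates differed by more than counting error (chi-square per degree of freedom 7.43 to 16.5), and none was a repeat.

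The comparison, gene lists and always-named genes were chosen with earlier results of these data known. The always-named genes were those that earlier results name in control-cross comparisons of these crosses. Fewer than 10 genes passed, so the rule named up to 12 genes per direction by lowest p among those without overlap and with at least 1 CPM in the higher group, leaving out predicted genes, plus 3 per list; 1 always-named gene is not reported here. The 36 lists were described by counts and medians without a test, and not every list or list member under this rule is given above. Transcript lengths and GC content are from GENCODE M21 (GRCm38), matched by gene ID.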

Additional observations from a re-analysis of the deposited data

How the results depend on the processing

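The count of 0 genes for the biparental against the maternal cross held with RLE factors, no filter on low counts, a filter of 1 CPM in at least 3 libraries, all 27 testis libraries, the GC correction and each library left out (range 0 to 0). It became 6 on the 6 libraries alone and 147 in DESeq2. Paternal minus control gave 1 gene as reported, 9 on the compared libraries alone, 8 in DESeq2, 3 with the replicate block, 0 on 27 libraries and 0 with the GC correction, a fit that does not hold 1700001J04Rik; leaving out libraries gave 1 to 1. The interaction, 0 as reported, gave 3 on the compared libraries alone, 8 in DESeq2, 3 with the replicate block and 0 to 0 without 1 library. The average gave 1 as reported, 2 on the compared libraries alone, 83 in DESeq2, 8 with the replicate block, 0 on 27 libraries, 0 with the GC correction and 1 to 2 without 1 library. The same letters of the biparental and maternal crosses correlated at 0.0087, -0.0988 and -0.00858. With 3 libraries per cross, these values cannot show whether the letters pair libraries, and the labels do not say. The replicate block is therefore given only as an alternative. With it, edgeR called 0 genes in the biparental against the maternal cross. The lowest adjusted p was then 0.0586, against 0.176 without the block. Signs turned round for 4 genes with differences near 0: leaving out 1 library gave -0.33 to 0.35 for Insl3, -0.44 to 0.12 for Esr2, -0.26 to 0.27 for Lars2 and -0.0060 to 0.046 for Greb1, and Insl3 was at 0.0875 with the GC correction. The cause was not tested. Of 1375 values of 99 genes followed under the alternatives, 1368 kept their direction, and 42 of those passed the threshold in DESeq2 or on the 6 libraries alone. All genes shifted by at most 0.0066 in median under another scaling.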
